A study of Homo sapiens with 12 samples.

Results

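The 10 genes described here encode the core BCL2 family, the proteins that decide whether the outer mitochondrial membrane is breached during apoptosis: the pro-survival genes BCL2, BCL2L1 and MCL1, the pore-forming effectors BAX and BAK1, and the BH3-only genes BBC3, PMAIP1, BCL2L11, BID and BAD. They were chosen by name, and each of the 10 matched 1 row among the 20308 genes of the expression table by its Ensembl identifier. Expression was measured by RNA sequencing of ribosomal RNA-depleted total RNA from C4-2 cells, an established castration-resistant prostate cancer line of the LNCaP lineage. One group carried an empty vector (genotype NC, treatment none) and the other an ALKBH5 overexpression construct (genotype and treatment oeALKBH5). The product of ALKBH5 is a demethylase that takes the methyl mark m6A (N6-methyladenosine) off RNA. The values come from the 3 input libraries of each group, made without m6A immunoprecipitation. The study's title places the comparison within prostate cancer progression and docetaxel resistance, and the labels name no drug for either group. The vector, the promoter that drives ALKBH5 and whether the cells were a pool or a clone are not given in the sources used here, nor is it stated whether the replicates were grown separately. The p-values therefore rest on how far these libraries scatter, and that scatter may be technical. In bulk RNA, fewer cells making a transcript and less transcript per cell cannot be told apart.

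In healthy and malignant cells, pro-survival members hold the effectors and the BH3-only proteins in check by binding the BH3 helix of their partners. When BH3-only proteins accumulate or are activated, the effectors oligomerise, cytochrome c leaves the mitochondria and the apoptosome forms. Taxanes such as docetaxel arrest cells in mitosis, and the death that can follow runs largely through this switch, with the decay of the short-lived MCL1 protein as one of its known timers. Much of the control of the family lies in protein turnover, phosphorylation, cleavage and splicing, which gene-level mRNA values do not show.

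The cells and their label were checked first. The luminal prostate markers KLK3, at 893 to 1019.5 FPKM, and HOXB13, at 52.3 to 59.4 FPKM, were detected in every library (FPKM: fragments per kilobase of transcript, scaled to the mapped fragments of the library). Summed levels of the other lists stayed low: 0 to 6.14 FPKM over 3 basal markers, 0.444 to 1.12 FPKM over 2 endothelial markers, 0.521 to 4.28 FPKM in NC and 3.49 to 8.28 FPKM in oeALKBH5 libraries over 8 immune markers, and 2.32 to 27.7 FPKM over 6 fibroblast markers, nearly all of it COL1A1, with DCN and LUM at 0 in all libraries. ALKBH5 itself was measured at 64.9, 61.1 and 58.2 FPKM in NC replicates 1, 2 and 3 and at 80.3, 74.3 and 72.5 FPKM in oeALKBH5 replicates 1, 2 and 3. All oeALKBH5 libraries were the higher ones, by 0.30 on the log2(FPKM + 1) scale (SE 0.10, limma adjusted p = 0.114). The absolute depth of the libraries is unknown.

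None of the 10 BCL2 family genes passed the test between oeALKBH5 and NC cells (limma, Benjamini-Hochberg adjusted over the 12757 genes averaging 0.5 FPKM or more, threshold 0.05). Over all tested genes, 695 were called, 5.45%. At an unadjusted limma p under 0.05 the members gave 1 of 10, MCL1, against 21.9% of all tested genes, and the libraries of the groups did not overlap in 1 of 10, also MCL1, against 28.1%. Of the members, 5 had a positive and 5 a negative difference. Their median difference was -0.0031 on the log2(FPKM + 1) scale, beside 0.018 over all tested genes, and their median absolute difference 0.21, beside 0.25. Since the count of members called was 0 at a background of 5.45%, the count alone says little about the family. The width of the intervals below shows which sizes of change these libraries could not tell from none.

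**Figure D1:**
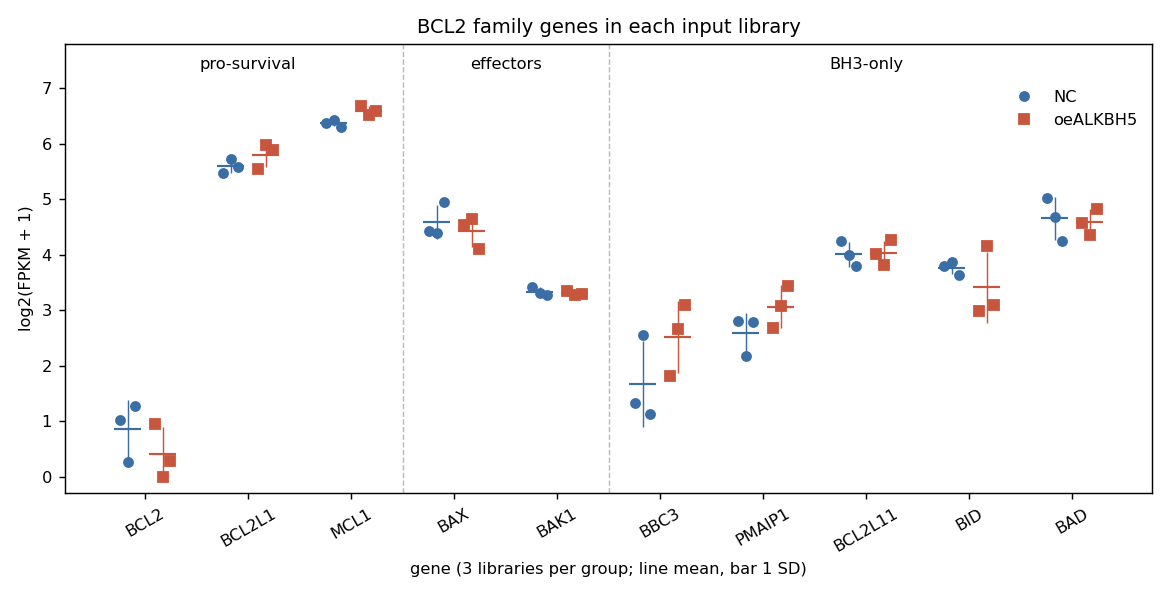
Each point is 1 input library, with log2(FPKM + 1) on the y axis and the 10 genes by class on the x axis; circles are NC, squares oeALKBH5, the short line is the mean and the bar 1 SD of 3 libraries. MCL1 is the highest gene and the one whose groups do not overlap, BCL2 the lowest, and BBC3 and BID scatter widely within a group.

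Levels, compared between genes per length as FPKM, put the pro-survival genes at both ends of the family. In NC libraries the order of mean FPKM was MCL1, BCL2L1, BAD, BAX, BCL2L11, BID, BAK1, PMAIP1, BBC3 and BCL2, and it was the same in oeALKBH5 libraries. The lowest MCL1 library stood above the highest BCL2L1 library in both groups, and the lowest BCL2L1 library above the highest BAD library. BAD and BAX overlapped in both groups, as did BCL2L11 with BID and PMAIP1 with BBC3. In oeALKBH5 libraries, every step from BAD down to BBC3 overlapped between neighbours.

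MCL1, the short-lived guardian that binds BAK1, BCL2L11 and PMAIP1, was measured at 82.0, 84.9 and 78.4 FPKM in NC replicates 1 to 3 and at 102, 90.2 and 94.9 FPKM in oeALKBH5 replicates 1 to 3. All 3 oeALKBH5 libraries lay above all 3 NC libraries. The difference was 0.22 on the log2(FPKM + 1) scale (SE 0.09, 95% interval 0.020 to 0.43), with an unadjusted limma p of 0.035 and an adjusted p of 0.189, so it did not pass. Of all tested genes, 18.6% had a smaller p. Under the other settings the unadjusted limma p ran from 0.015 without a filter to 0.11 without oeALKBH5 replicate 1. The interval thus lay above 0 under some settings and crossed it under others. An exact two-sided permutation test gave p = 0.1 for MCL1, the smallest that 3 libraries against 3 allow. MCL1 is spliced into a long pro-survival and a short form without that activity, which gene values do not separate.

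BCL2L1, whose long product BCL-xL protects cells and whose short product BCL-xS does not, stood at 43.5, 52.2 and 47.0 FPKM in NC and at 45.8, 61.9 and 58.1 FPKM in oeALKBH5 libraries. The groups overlapped through oeALKBH5 replicate 1 (difference 0.20, SE 0.14, 95% interval -0.11 to 0.52, limma adjusted p = 0.424). In RefSeq an antisense gene, BCL2L1-AS1, overlaps BCL2L1, and whether the counting used strand is not stated. BCL2, the founding member, was barely expressed, at 1.02, 0.203 and 1.41 FPKM in NC and 0.923 and 0.222 FPKM in oeALKBH5 replicates 1 and 3, and was listed at 0 in oeALKBH5 replicate 2. Its groups overlapped, and its interval was among the widest (difference -0.44, 95% interval -1.38 to 0.50, limma adjusted p = 0.574). With a pseudocount of 0.1 in place of 1 the difference was -1.32 (adjusted p = 0.544).

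MCL1 and BCL2L1 made up nearly all pro-survival transcript of the 3 members. The sum of BCL2, BCL2L1 and MCL1 was 126, 137 and 127 FPKM in NC and 149, 152 and 153 FPKM in oeALKBH5 libraries, with no overlap, as for MCL1, which it contains. MCL1 held 62.8% ± 1.74 of that sum in NC and 63.3% ± 4.79 in oeALKBH5 libraries (SD, n = 3 each), and BCL2L1 36.5% ± 1.9 and 36.5% ± 5.12. The share of BCL2 was at most 1.11% in any library. The shares of MCL1 and BCL2L1 thus differed by less than their spread between libraries. That of BCL2 was 0.69% ± 0.49 in NC and 0.26% ± 0.32 in oeALKBH5 libraries, and the groups overlapped. No test was run on these sums and shares.

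BAX, the cytosolic effector that moves to mitochondria when activated, was measured at 20.4, 20.1 and 29.9 FPKM in NC and at 22.2, 24.0 and 16.2 FPKM in oeALKBH5 libraries. NC replicate 3 was the highest and oeALKBH5 replicate 3 the lowest of the 6, and the others lay within 4 FPKM of each other. The difference of -0.16 (SE 0.21, 95% interval -0.63 to 0.31, limma adjusted p = 0.699) became 0.018 when NC replicate 3 was dropped and 5.4e-04 when oeALKBH5 replicate 3 was. BAK1, the effector resident in the mitochondrial membrane, varied little between libraries, at 9.71, 8.94 and 8.65 FPKM in NC and 9.21, 8.69 and 8.81 FPKM in oeALKBH5 libraries. Its coefficient of variation was 5.98% and 3.08% within the groups, and its difference -0.027 (SE 0.18, 95% interval -0.42 to 0.37, limma adjusted p = 0.952), which became 0.016 without NC replicate 1.

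BBC3 encodes PUMA, a p53-inducible BH3-only protein that binds all pro-survival members. Its values were 1.5, 4.89 and 1.19 FPKM in NC and 2.52, 5.35 and 7.49 FPKM in oeALKBH5 libraries. NC replicate 2 reached the level of the oeALKBH5 libraries, and the coefficient of variation was 81.2% within NC and 48.7% within oeALKBH5. The difference of 0.85 was the largest of the family at this pseudocount, with the largest error (SE 0.45, 95% interval -0.18 to 1.88, limma adjusted p = 0.314). It ran from 0.57 without oeALKBH5 replicate 3 to 1.30 without NC replicate 2, and the adjusted p was 0.148 in the latter case.

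PMAIP1 encodes NOXA, which binds MCL1 and promotes its degradation. It stood at 6.0, 3.52 and 5.91 FPKM in NC and at 5.42, 7.42 and 9.87 FPKM in oeALKBH5 libraries. oeALKBH5 replicates 2 and 3 exceeded all NC libraries, and replicate 1 fell inside the NC range (difference 0.47, SE 0.28, 95% interval -0.16 to 1.11, limma adjusted p = 0.361). Without NC replicate 2 the difference was 0.27. BCL2L11 encodes BIM, which is made in several splice forms and activates BAX and BAK1 directly. It gave 18.0, 14.9 and 12.9 FPKM in NC and 15.2, 13.1 and 18.2 FPKM in oeALKBH5 libraries, with the ranges lying over each other (difference 0.021, SE 0.19, 95% interval -0.41 to 0.45, limma adjusted p = 0.967).

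BID, which CASP8 cleaves to carry the death receptor signal to mitochondria, was even in NC libraries, at 12.8, 13.7 and 11.4 FPKM, and uneven in oeALKBH5 libraries, at 6.90, 16.7 and 7.59 FPKM. oeALKBH5 replicates 1 and 3 lay below every NC library and replicate 2 above every one. The difference was -0.36 (SE 0.30, 95% interval -1.04 to 0.33, limma adjusted p = 0.531) and -0.72 without oeALKBH5 replicate 2 (adjusted p = 0.103). That was the lowest adjusted p of any member in any of the 158 member fits under other settings or with 1 library left out, and none of these fits gave a call. BAD, a sensitiser that survival kinases phosphorylate and keep off BCL2L1, gave 31.5, 24.8 and 18.1 FPKM in NC and 22.7, 19.4 and 27.5 FPKM in oeALKBH5 libraries. Its groups overlapped (difference -0.072, SE 0.21, 95% interval -0.56 to 0.42, limma adjusted p = 0.884), and the sign turned when NC replicate 1 (0.11) or oeALKBH5 replicate 2 (0.044) was left out. In RefSeq, BAD overlaps GPR137 on the other strand. GPR137 stood at 16.7, 17.5 and 21.0 FPKM in NC and 14.7, 22.0 and 11.3 FPKM in oeALKBH5 libraries, and how reads of the overlap were assigned is not stated.

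**Figure D2:**
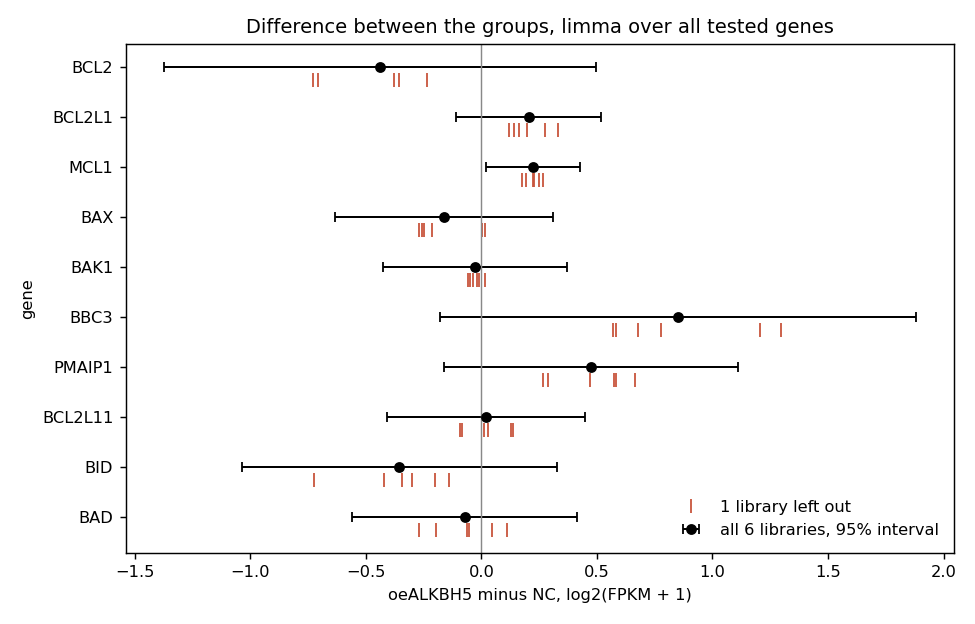
The x axis is the difference oeALKBH5 minus NC on the log2(FPKM + 1) scale for each gene on the y axis; black points with bars are the limma estimate and 95% interval from all 6 libraries, and red ticks are the estimates with 1 library left out. The MCL1 interval, 0.020 to 0.43, lies above 0 before adjustment; those of the other 9 genes cross 0, and the BBC3 interval reaches 1.88.

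Exact two-sided permutation tests over the 6 libraries, run on each of the 10 genes, gave p = 0.2 for BBC3, 0.3 for BCL2, BCL2L1 and PMAIP1, 0.4 for BID, 0.6 for BAX, 0.7 for BAK1 and BCL2L11 and 0.8 for BAD. A p above the threshold does not show that the groups were alike. For BAK1 the interval held changes of up to 0.42 in size on the log2 scale, and for BCL2, BBC3, PMAIP1 and BID it held changes above 1 in size.

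Ratios of a pro-apoptotic gene to the pro-survival gene it binds were set side by side within each library, as log2 ratios of FPKM and with no test. The ratio of BAX to BCL2L1 was -1.04 ± 0.36 in NC and -1.42 ± 0.40 in oeALKBH5 libraries (SD, n = 3), that of BCL2L11 to MCL1 -2.44 ± 0.22 and -2.64 ± 0.22, and that of PMAIP1 to MCL1 -4.03 ± 0.49 and -3.70 ± 0.49. These ratios overlapped between the groups. The ratio of BBC3 to BCL2L1 was -4.53 ± 0.99 in NC and -3.56 ± 0.62 in oeALKBH5 libraries and overlapped as well. The ratio of BAK1 to MCL1 was -3.08, -3.25 and -3.18 in NC and -3.47, -3.38 and -3.43 in oeALKBH5 libraries. This was the 1 pair of the 5 computed in all libraries whose groups did not overlap, with a lower ratio in oeALKBH5 cells, where BAK1 stayed even and MCL1 was the higher. The ratio contains MCL1, whose groups did not overlap by themselves. Single genes did not overlap in 28.1% of all tested genes, and no such share was computed for ratios. BAX to BCL2 could not be formed in oeALKBH5 replicate 2, where BCL2 was listed at 0.

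**Figure D3:**
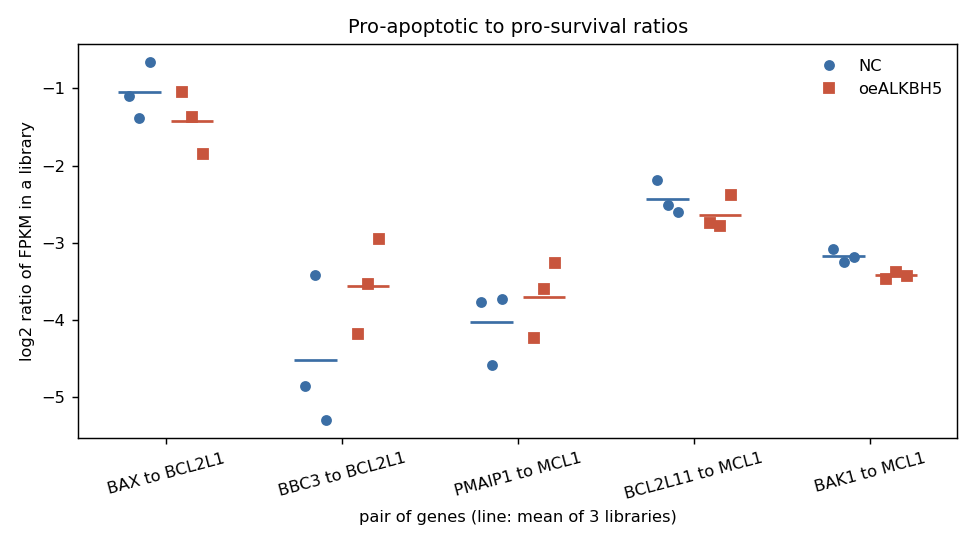
The y axis is the log2 ratio of FPKM of 2 genes in the same library, for the 5 pairs on the x axis; circles are NC, squares oeALKBH5, and lines are means of 3 libraries. The BAK1 to MCL1 ratio is lower in all oeALKBH5 libraries, at -3.47 to -3.38 against -3.25 to -3.08 in NC, and the other pairs overlap.

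Of 7 other pro-survival, effector and BH3-only relatives, 4 passed the filter on low values, and none of them was called. BCL2L2, which encodes the pro-survival BCL-w, stood at 11.8, 17.2 and 14.8 FPKM in NC and 13.7, 15.5 and 16.7 FPKM in oeALKBH5 libraries (limma adjusted p = 0.856), and the readthrough gene BCL2L2-PABPN1, which shares its exons, ranged from 1.26 to 8.18 FPKM. BCL2L10 was listed at 0 in all libraries, BCL2A1 in all but oeALKBH5 replicate 2 (2.58 FPKM) and the BH3-only gene HRK in all but NC replicate 2 (0.106 FPKM). BOK, an effector-like relative, was higher in each oeALKBH5 library, at 8.08, 8.05 and 7.58 FPKM against 4.03, 7.37 and 4.54 FPKM in NC, and did not pass (difference 0.53, SE 0.24, limma adjusted p = 0.246). The BH3-only genes BIK, at 9.39 to 18.8 FPKM, and BMF, at 4.11 to 6.17 FPKM, overlapped between the groups (limma adjusted p = 0.752 and 0.987).

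Of 8 tested non-canonical relatives and BNIP genes, 1 rose and 7 did not pass, 12.5% called beside 5.45% of all tested genes. This list and those below were chosen with earlier results of these data known, so their shares called are not a test of the lists. The median difference of the list was 0.29, beside 0.018 over all tested genes. BNIP3L, a mitophagy receptor with a BH3-like stretch that hypoxia induces, rose from 58.5, 58.2 and 61.8 FPKM in NC to 104, 111 and 122 FPKM in oeALKBH5 libraries (difference 0.90, SE 0.10, limma adjusted p = 0.00167), and it was called in all 16 other fits. Its paralogue BNIP3, named after its values were seen, gave 179.9, 121 and 161 FPKM in NC and 237, 209.5 and 217 FPKM in oeALKBH5 libraries. All oeALKBH5 libraries were higher, and the difference of 0.54 (SE 0.13) missed the threshold at a limma adjusted p of 0.0563. BNIP3 was called in 3 of 16 other fits. These were without NC replicate 1 (0.66, adjusted p = 0.0391), with a replicate block (adjusted p = 0.0496) and with quantile normalization (adjusted p = 0.0407). It was not called in the others, where the adjusted p reached 0.137 with 1 library left out, 0.138 without a filter and 0.166 without the intensity trend.

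BNIP3 is a known target of hypoxia-inducible factors, whose binding core can read ACGTG. The same letters occur near BAX, so both start regions are shown, 5′ to 3′ on the gene's strand. Each holds 300 bases that lie mostly before the RefSeq start in GRCh38.p14. The BAX window is chr19:48954625-48954924 (plus strand) and the BNIP3 window chr10:131981874-131982173 (minus strand). Capitals mark ACGTG on either strand, with overlapping matches joined.
BAX: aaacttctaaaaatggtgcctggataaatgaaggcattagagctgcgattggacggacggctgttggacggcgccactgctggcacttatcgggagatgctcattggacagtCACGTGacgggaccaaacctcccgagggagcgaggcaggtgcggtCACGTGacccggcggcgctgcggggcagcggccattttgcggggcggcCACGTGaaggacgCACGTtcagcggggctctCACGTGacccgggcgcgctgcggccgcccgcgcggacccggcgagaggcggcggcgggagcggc
BNIP3: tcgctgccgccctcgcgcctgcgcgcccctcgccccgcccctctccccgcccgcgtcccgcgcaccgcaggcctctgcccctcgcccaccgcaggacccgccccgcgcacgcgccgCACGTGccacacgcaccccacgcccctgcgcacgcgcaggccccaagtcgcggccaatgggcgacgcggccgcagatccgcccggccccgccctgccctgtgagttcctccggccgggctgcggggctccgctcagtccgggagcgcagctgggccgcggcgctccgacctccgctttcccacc
The BAX window held ACGTG at 5 places and the BNIP3 window at 1. Other forms of the core were not searched, so these counts do not compare the windows for the core as a whole. Of 35116 RefSeq windows of this length, 21.4% held ACGTG at least once and 16, or 0.046%, at 5 or more places. BAX levels overlapped between the groups, as given above, while BNIP3 was higher in each oeALKBH5 library. A match is a description of letters, and no binding was measured. Whether these letters bear on the level of either gene, and which factor might bind them, was not tested.

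RefSeq windows were at hand for 9 of the 10 members, 15 windows in all. Besides BAX, the windows of BBC3 and BID held ACGTG. The GC box GGGCGG occurred in 7 members (45.0% of all windows), CCAAT in 5 (34.6%), TATAAA in BCL2L1 alone (11.5%) and the p53 decamer in BAK1 alone (6.6%). TTCNNNGAA, the site type that STAT proteins bind (7.7% of windows), and the cyclic AMP response element TGACGTCA (1.8%) were in none. Both strands were searched and windows of 1 gene may overlap. A member was counted if any of its windows matched, and BID has 5 windows. The shares in brackets are per single window, so counts and shares are not alike in unit and do not show an excess in the family. ACGTG is contained in none of the other motifs, and where CACGTG occurs both strands match. In BAK1 the p53 decamer shares 1 base with a GGGCGG match. Only exact matches inside these windows were sought. Members without a p53 decamer here may hold p53 sites of another form or elsewhere, which were not searched.

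Downstream of the family, 13 genes of mitochondrial release and the apoptosome were tested, of which 1 fell and 12 did not pass. The share called was 7.69%, near the 5.45% of all tested genes, and the median difference was -0.056. CYCS, which encodes the cytochrome c that leaves mitochondria after BAX and BAK1 open them and carries electrons before that, fell from 212, 254 and 239.7 FPKM in NC to 196, 170.2 and 167 FPKM in oeALKBH5 libraries (difference -0.40, SE 0.09, limma adjusted p = 0.0472). The call was lost when NC replicate 2 (adjusted p = 0.135) or 3 (0.156) or oeALKBH5 replicate 2 (0.119) or 3 (0.137) was left out, with equal library sums (0.0509), with quantile normalization (0.0681), without a filter (0.0983), with a replicate block (0.119) and without the intensity trend (0.178).

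Among 23 tested enzymes and partners that act on BCL2 family proteins, 2 rose and 21 did not pass. The share called was 8.7%, near the 5.45% of all tested genes, and the median difference was 0.026. PIM1, a survival kinase that phosphorylates BAD, rose from 5.36, 3.61 and 4.82 FPKM in NC to 23.5, 15.3 and 22.5 FPKM in oeALKBH5 libraries (difference 1.93, SE 0.23, limma adjusted p = 0.00287) and was called in all 16 other fits. YWHAZ, a 14-3-3 protein that holds phosphorylated BAD in the cytosol, rose from 519, 511 and 522 FPKM to 624, 611 and 593 FPKM (difference 0.24, SE 0.05, limma adjusted p = 0.0348). The YWHAZ call did not survive the loss of any 1 of the 6 libraries, with adjusted p from 0.0804 without oeALKBH5 replicate 3 to 0.119 without NC replicate 3, with equal library medians (0.0577), with a replicate block (0.111) and without the intensity trend (0.29). BAD, on whose protein both act, overlapped between the groups.

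Of 16 transcription factors known to act on BCL2 family genes, 3 rose, 1 fell and 12 did not pass. The share called was 25% beside 5.45% of all tested genes, with a median difference of 0.22. As this list was chosen with earlier results of these data known, these shares are not a comparison of like with like. DDIT3, the stress factor CHOP that can induce BCL2L11 and repress BCL2, rose from 21.9, 31.5 and 21.9 FPKM in NC to 51.0, 53.6 and 69.8 FPKM in oeALKBH5 libraries (difference 1.19, SE 0.18, limma adjusted p = 0.00877). ATF3, a partner of ATF4 in the induction of PMAIP1, had a difference of 1.72 (SE 0.14, limma adjusted p = 3.62e-04). DDIT3 and ATF3 were called in all 16 other fits.

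IRF1, an interferon-induced factor, rose from 3.35, 0.754 and 1.49 FPKM to 7.07, 7.99 and 6.44 FPKM (difference 1.61, SE 0.34, limma adjusted p = 0.0331). The IRF1 call held when NC replicate 1 was left out and was lost when any other library was, with adjusted p of 0.0815 and 0.12 for NC replicates 2 and 3 and of 0.0838, 0.0961 and 0.0816 for oeALKBH5 replicates 1, 2 and 3. It was also lost without a filter (0.0882), without the intensity trend (0.0624) and with a replicate block (0.068). E2F1, which can induce BBC3, PMAIP1 and BCL2L11, fell from 24.3, 20.2 and 23.1 FPKM to 15.6, 12.1 and 13.9 FPKM (difference -0.66, SE 0.16, limma adjusted p = 0.0491). E2F1 passed in 3 of 16 other fits and in none that left out 1 library, where the adjusted p ran from 0.0657 without oeALKBH5 replicate 1 to 0.158 without NC replicate 3. The genes named here as targets of these factors, BCL2, BCL2L11, BBC3 and PMAIP1, were not called under any setting.

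**Figure D4:**
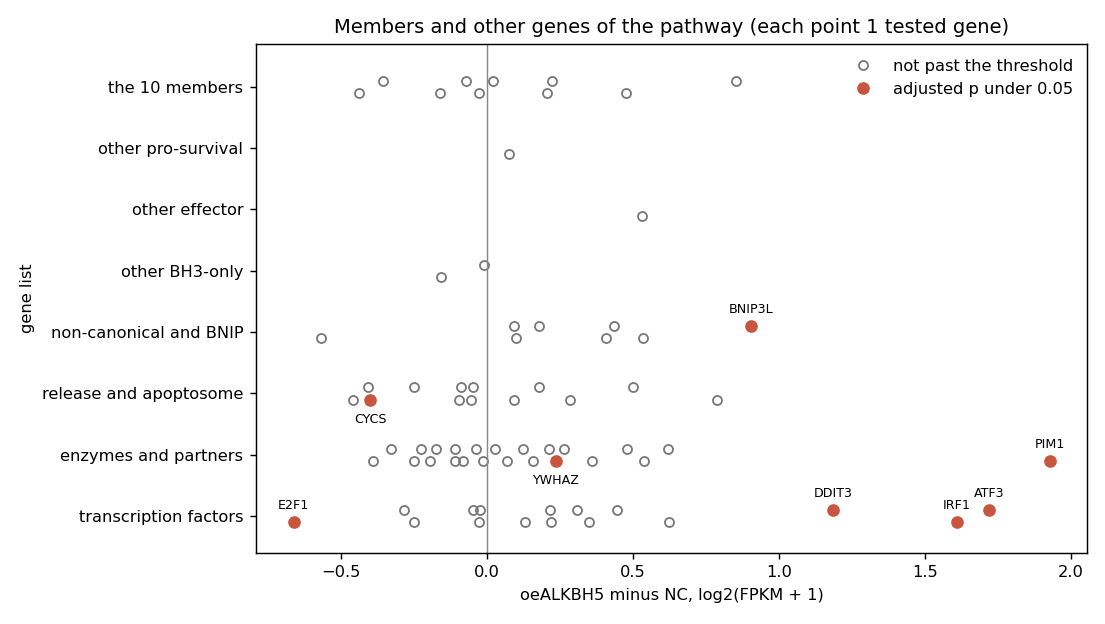
Each point is 1 tested gene, placed by its difference oeALKBH5 minus NC on the log2(FPKM + 1) scale (x axis) and by list (y axis); filled points passed at an adjusted p under 0.05. The 10 members lie between -0.44 and 0.85 with none filled, and 8 of the 64 tested genes of the other lists are filled, 6 higher and 2 lower.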

How the data were processed

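Input RNA of C4-2 cells was measured in 3 NC and 3 oeALKBH5 libraries. The authors deposited 1 value per gene and library, read here as FPKM: no header gives the unit, which was inferred from the values and from the submitters' processing notes (cutadapt 1.9.3, HISAT2 2.0.4, Cuffdiff and Cufflinks, build hg19, roles not stated). Fragment counts were not used here, so depth and counting error are unknown.

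The 12757 of 20308 genes that averaged 0.5 FPKM or more were fitted as log2(FPKM + 1) by limma 3.58.1 (R 4.3.3) using its intensity trend, Benjamini-Hochberg adjustment over all of them and a threshold of 0.05. This scale understates changes of low genes. Intervals are limma's 95% intervals, not adjusted. Exact permutation tests used scipy 1.17.1 (Python 3.11.15). Alternatives changed the pseudocount, filter, variance model, scaling or replicate block, or left out 1 library. The limma fit, and no other step, was run on simulated log2 values with 200 changed genes. These values were drawn with the variance model of the fit itself. The run therefore checks the code and not how well the model suits these data. The named genes were all members and, per list, each called gene up to 6, else the 2 with the smallest p. Members and lists were chosen with earlier results of these data known. ACGTG was searched among other motifs, and TGACGTCA, the BAX and BNIP3 sequences were added after values were seen. The m6A peak lists were not analysed here, since placing peaks in genes needs an hg19 annotation, and protein sequences were not used here. The summed level of the luminal marker list is not reported here.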

Additional observations from a re-analysis of the deposited data

How the results depend on the processing

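The count of members called was 0 in each direction under all 16 alternatives. BBC3, PMAIP1, BCL2L1, MCL1, BID and BCL2 kept their sign in each; BCL2 fell under the filter in 2 (a mean of 1 FPKM, and without NC replicate 3) and has no value there. The sign of BCL2L11 turned with quantile normalization (-0.00755) and equal library medians (-0.00466), and that of BMF with equal library sums (0.0073). With 1 library left out, differences ran from -0.27 to 0.018 for BAX, -0.059 to 0.016 for BAK1, -0.095 to 0.14 for BCL2L11, -0.27 to 0.11 for BAD, -0.060 to 0.19 for BCL2L2, -0.30 to 0.040 for BIK and -0.14 to 0.11 for BMF. Of all tested genes, 385 were called higher and 310 lower; without the intensity trend these were 198 and 72, with a replicate block 203 and 141, without a filter the lower calls were 163, and with 1 library left out they ran from 156 to 226 higher and from 76 to 210 lower. Pathway genes called lower, 2 at first, were 1 with a pseudocount of 0.1 or robust empirical Bayes, 0 without a filter, without the trend, with quantile normalization, equal library sums or a replicate block, and 0 to 1 with 1 library left out; the cause was not tested. No pairing by replicate number was seen: deviations of same-numbered libraries correlated at -0.017, -0.0205 and 0.0315, and 1 of 3 NC libraries correlated best with its own number. Whether same-numbered samples were paired is not stated in the sources used here, and these correlations cannot settle it. The block left 344 calls in place of 695. Low genes such as BCL2 and BBC3 were measured least precisely, and values at 0 may be failed estimates. BAX to BCL2 has no mean log2 ratio in oeALKBH5 libraries, since BCL2 was listed at 0 in 1 of them. With 1 FPKM added to each gene the mean log2 ratio was 3.74 in NC and 4.02 in oeALKBH5 libraries, and the groups overlapped.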
